A study of Mus musculus with 24 samples.

Results

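The genes described here are 10 transcription factor genes of the core and naive pluripotency network: Pou5f1, Sox2, Nanog, Klf2, Klf4, Klf5, Esrrb, Tfcp2l1, Tbx3 and Zfp42. The set was named by the network it belongs to, with earlier results of these data known and with no cut-off on a measured value, and holds 10 of the 21887 protein-coding genes on chromosomes 1 to 19, X and Y of the RefSeq GRCm38.p6 table. PRDM16, H3K4me1 and H3K4me2 were profiled in mouse cells by CUT&RUN, in which an antibody-tethered nuclease releases the chromatin fragments around its target for sequencing. The deposited result of each library is a list of called peaks. Of the 24 lists, the 16 for H3K4me1 and H3K4me2 are used for the results, and the 8 for PRDM16 are given once.

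All cells had a C57BL/6 background. The day 6 embryoid bodies (EB), aggregates in which ES cells differentiate, were grown in a serum medium for which no LIF is listed, as Prdm16 KO and as wild type (WT). The embryonic stem (ES) cells were grown in medium with serum, serum replacement and LIF on Matrigel, also as Prdm16 KO and as WT. PRDM16 is a zinc finger transcriptional regulator with a PR domain. Each group of 1 antibody, stage and genotype held 2 libraries, and the labels do not say that the 2 came from separate cultures or clones. The p-values below thus rest on how the 2 libraries of each group differ, which may be technical variation alone. The peak lists held no check of the KO label. For H3K4me2, EB WT replicate 2 and ES KO replicate 2 carry another library series in their titles (400-JX) than the other 6 libraries (329-BZ).

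H3K4me2 lists held 13818 to 32874 peaks and H3K4me1 lists 5990 to 15435. The depth of the libraries is unknown, and lack of a called peak was not read as lack of the mark. Over all genes tested, the median difference of EB from ES cells was -0.30 for H3K4me2 and -0.66 for H3K4me1, on the log2 scale explained below. When each library's covered length was scaled to the mean total of its mark, these medians became 0.16 and -0.41. For H3K4me2, 961 genes were called higher and 4746 lower, and 3959 higher and 2586 lower after scaling. For H3K4me1, 1085 were called higher and 4465 lower, and 1385 higher and 3189 lower after scaling.

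Mouse ES cells kept with LIF stay in a naive state, in which POU5F1 (also called OCT4), SOX2 and NANOG occupy the enhancers of their own and each other's genes. A second tier of factors, among them the Krüppel-like factors KLF2, KLF4 and KLF5, ESRRB, TFCP2L1 and TBX3, holds that state and responds to LIF and WNT signalling, and Zfp42, which encodes REX1, is a widely used marker of it. During differentiation the naive tier is switched off early, while Pou5f1 and Sox2 are retained for longer. H3K4me1 is typical of enhancers, and H3K4me2 of enhancers and of the nucleosomes flanking active promoters.

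The promoter sequences below are the 250 bases before a RefSeq transcription start (GRCm38.p6), written 5′ to 3′ on the strand of the gene. They are shown because an H3K4 peak was called over them in some libraries, apart from the Nanog window, which had none and is shown for the motif it holds. Capitals mark matches, on either strand, to these motifs: the octamer bound by POU factors (ATGCAAAT), the SOX core shared by SOX sites (ACAATGG), the GC box of SP and Krüppel-like factors (GGGCGG), the longer KLF box of Krüppel-like factors (GGGTGTGG), the ESRRB box, a half-site of orphan receptors (AAGGTCA), the TATA box of core promoters (TATAAA), and the composite OCT-SOX element (TTTGCAT, any 1 base, then ACAATG). The OCT-SOX element was added to the search after the sequences had been seen.
Klf2 (chr8:72318812-72319061, plus strand): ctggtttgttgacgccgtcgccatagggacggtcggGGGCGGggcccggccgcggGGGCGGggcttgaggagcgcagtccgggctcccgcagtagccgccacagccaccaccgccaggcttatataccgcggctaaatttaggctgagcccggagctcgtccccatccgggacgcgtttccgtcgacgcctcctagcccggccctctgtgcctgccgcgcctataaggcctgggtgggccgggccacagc
Tfcp2l1 (chr1:118627695-118627944, plus strand): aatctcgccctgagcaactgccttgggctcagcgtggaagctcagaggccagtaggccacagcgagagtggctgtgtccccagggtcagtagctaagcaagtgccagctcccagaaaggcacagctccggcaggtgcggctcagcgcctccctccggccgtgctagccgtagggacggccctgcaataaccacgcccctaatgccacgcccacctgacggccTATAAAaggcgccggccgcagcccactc
Pou5f1 (chr17:35505782-35506031, plus strand): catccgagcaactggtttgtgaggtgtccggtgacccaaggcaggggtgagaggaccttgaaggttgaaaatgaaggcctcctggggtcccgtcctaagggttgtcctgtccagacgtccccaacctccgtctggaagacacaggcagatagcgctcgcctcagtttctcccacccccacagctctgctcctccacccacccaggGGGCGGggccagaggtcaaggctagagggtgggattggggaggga
Nanog (chr6:122707239-122707488, plus strand): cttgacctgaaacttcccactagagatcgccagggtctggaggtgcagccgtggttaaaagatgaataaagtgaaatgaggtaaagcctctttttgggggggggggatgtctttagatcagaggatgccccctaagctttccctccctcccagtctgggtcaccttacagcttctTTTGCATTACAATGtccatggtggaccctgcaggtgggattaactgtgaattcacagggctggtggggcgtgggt
Zfp42 (chr8:43307010-43307259, minus strand): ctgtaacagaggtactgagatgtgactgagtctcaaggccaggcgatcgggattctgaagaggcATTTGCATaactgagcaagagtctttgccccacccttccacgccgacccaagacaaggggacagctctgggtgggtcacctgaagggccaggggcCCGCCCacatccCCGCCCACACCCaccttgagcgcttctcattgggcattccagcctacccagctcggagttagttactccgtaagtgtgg
Esrrb, internal start (chr12:86421394-86421643, plus strand): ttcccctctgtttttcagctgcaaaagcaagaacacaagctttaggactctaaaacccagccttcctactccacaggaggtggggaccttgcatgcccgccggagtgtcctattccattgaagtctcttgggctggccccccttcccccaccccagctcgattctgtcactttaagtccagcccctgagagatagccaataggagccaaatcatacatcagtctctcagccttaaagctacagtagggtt
The Klf2 window held 29 CpG and 2 GC boxes, and the Tfcp2l1 window held 16 CpG and a TATA box, against a median of 6 CpG over the 32851 promoter windows of the table. High CpG counts were not particular to them. Of the windows not printed, that of Sox2, with no peak in any library, held 27 CpG. That of Klf4, with H3K4me2 peaks in libraries of both stages, held 32. The Pou5f1 window held 1 GC box, a motif found in 32.7% of all windows. The OCT-SOX element of Nanog occurred in 2 of all windows (0.00609%), both of which are overlapping entries of Nanog. The Zfp42 window held an octamer (in 1.6% of all windows), 2 GC boxes and a KLF box (3.2%) that overlaps 1 of the GC boxes. The internal Esrrb window held no match and therefore no capitals. A TATA box was in 12.4% of all windows, a SOX core in 3.02% and an ESRRB box in 4.08%. These matches describe the letters and say nothing about binding.

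The 10 genes had 83 H3K4me2 and 66 H3K4me1 peaks within 20 kb of the gene span, which merged into 33 regions. Of these regions, 9 were in a single list and 6 were in 8 or more lists. For H3K4me2, peaks lay over the gene span of 6, 8, 5 and 7 of the 10 genes in EB KO 1, EB KO 2, EB WT 1 and EB WT 2, against 3 of the 10 genes in each of the 4 ES libraries. The 3 genes marked in ES cells were Klf4, Esrrb and Zfp42. Over all 21887 genes the share with an H3K4me2 peak over the span was 52.7 to 57.8% in EB libraries and 57.1 to 61.6% in ES libraries. The total length covered within 20 kb of the 10 genes did not separate the stages, at 23.0 to 40.5 kb in EB libraries and 32.9 to 43.3 kb in ES libraries. For H3K4me2, the plot of covered length by library shows that EB libraries were marked at more of the genes, and ES libraries over longer stretches of fewer genes. H3K4me1 peaks lay within 20 kb of 5 or 6 of the 10 genes in every library of both stages. Over all genes this share was 24.3 to 42.0% in EB libraries and 46.2 to 50.9% in ES libraries.

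**Figure D1:**
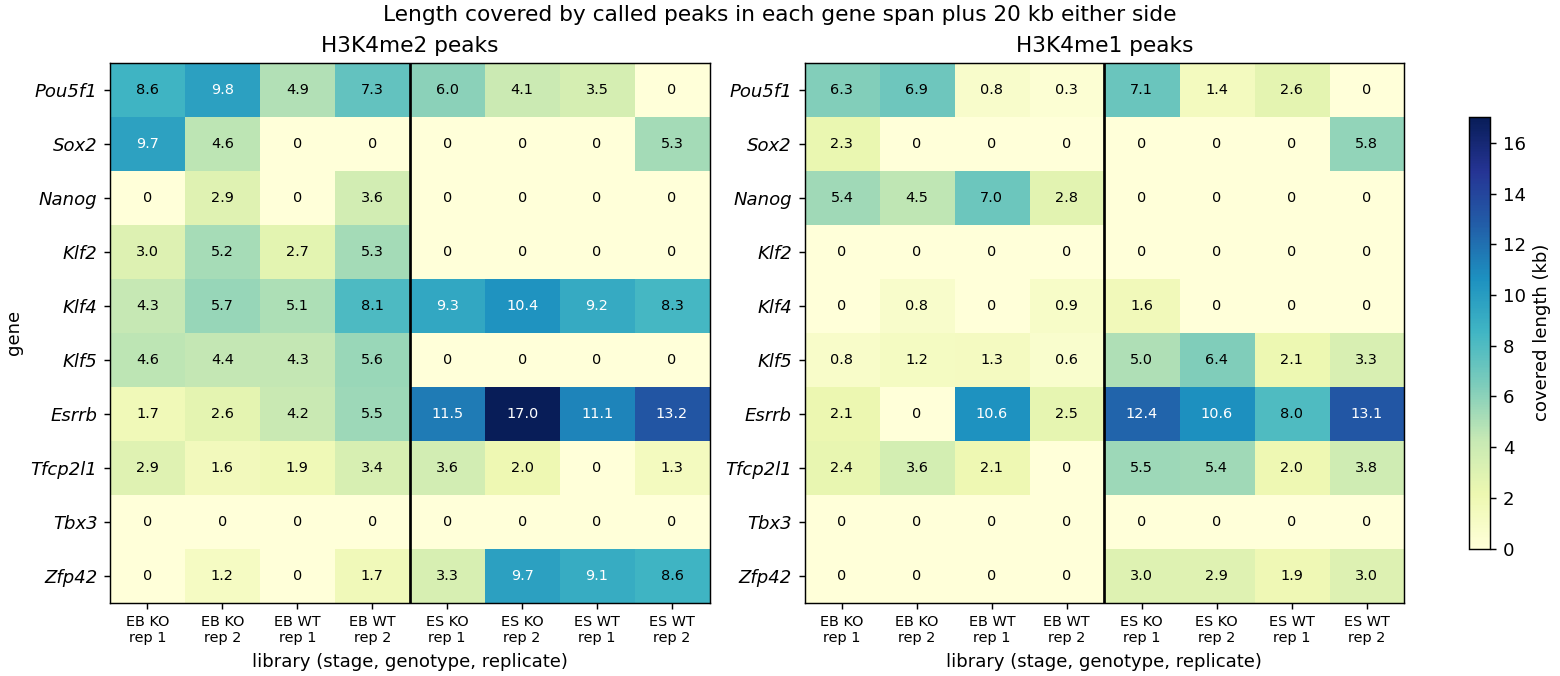
Length in kb covered by called H3K4me2 peaks (left) and H3K4me1 peaks (right) in the span of each gene plus 20 kb either side, in each library (columns), with the number printed in each cell. Klf2 and Klf5 have H3K4me2 in the 4 EB libraries and 0 in the 4 ES libraries, Esrrb and Zfp42 have more in ES libraries, and Tbx3 has 0 in every library of both marks.

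EB were set against ES cells to ask where the marks moved on differentiation, taking KO and WT with equal weight. The measure was log2(kb covered within 20 kb of the gene span + 1 kb), tested with limma over every gene with a peak in at least 2 of the 8 libraries of the mark, and called at a Benjamini-Hochberg adjusted p under 0.05. For H3K4me2, 2 of the 9 genes tested rose in EB (Klf2 and Klf5), where 5.56% of the 17277 genes tested rose, and 3 fell (Klf4, Esrrb and Zfp42), where 27.5% fell. For H3K4me1, 1 of the 8 genes tested rose (Nanog), where 7.65% of 14189 genes rose, and 3 fell (Klf5, Esrrb and Zfp42), where 31.5% fell. The median difference was 0.81 over the 9 genes for H3K4me2 and -0.59 over the 8 genes for H3K4me1, beside -0.30 and -0.66 over all genes tested. Tbx3 for both marks and Klf2 for H3K4me1 had too few peaks to be tested. Where every library of a stage or group stood at 0 kb, the size of a difference depends on the 1 kb added and gives no fold. Such a group also adds no spread of its own to the limma fit. The libraries of EB and ES cells did not overlap, with EB higher, for 2 of the 9 genes in H3K4me2 (4.09% of all genes tested) and 1 of the 8 in H3K4me1 (3.53%), and with EB lower for 3 (20.5%) and 2 (24%). Read against all genes, the share of the 10 that fell was near the background for both marks.

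**Figure D2:**
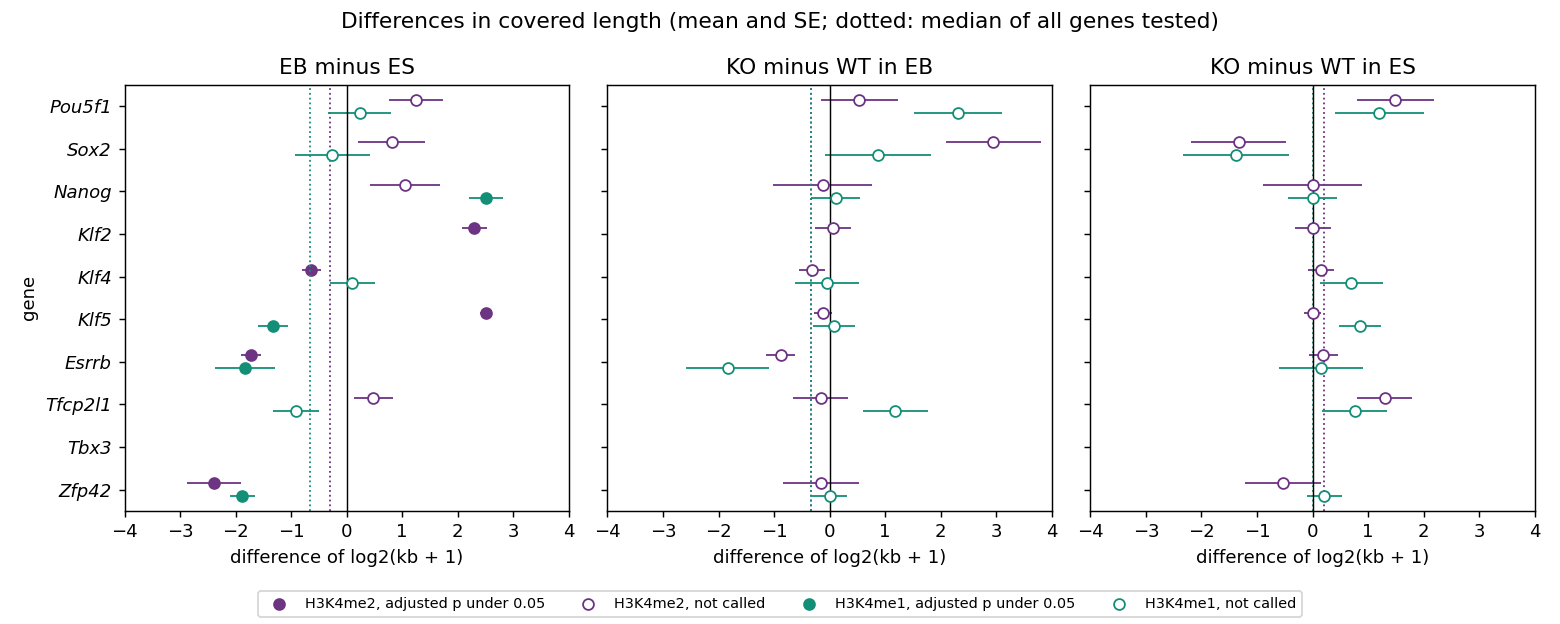
Difference of log2(kb + 1) with its SE for each gene, for EB minus ES (left), KO minus WT in EB (middle) and KO minus WT in ES (right). Filled points passed an adjusted p of 0.05 in limma, open points did not, and dotted lines are the medians of all genes tested, so that 9 filled points stand in the left panel and none in the others.

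Pou5f1 (chr17:35506032-35510777), which encodes the POU factor OCT4, had H3K4me2 over 8.6 and 9.8 kb in EB KO and 4.9 and 7.3 kb in EB WT, against 6.0 and 4.1 kb in ES KO and 3.5 and 0 kb in ES WT. The stages overlapped and the difference of 1.25 (SE 0.49) had an adjusted p of 0.105 in limma. The regions behind these sums were not the same in EB and ES cells. In EB, H3K4me2 lay at chr17:35513150-35519380 in all 4 libraries and in no ES library, beyond the 3′ end of Pou5f1 and over ends of Tcf19 and Cchcr1. In ES cells it lay upstream at chr17:35485312-35492135 in both KO libraries and 1 WT library, a region that also had a peak in 1 EB WT library. ES KO replicate 2 had a second peak beyond the 3′ end, within chr17:35528131-35535609. In 1 EB WT library an H3K4me2 peak lay inside that same stretch, at chr17:35531384-35534087, just beyond the 20 kb. The EB KO libraries had a further peak at the start, described with the genotypes below. The highest-ranked H3K4me2 peak near Pou5f1 stood at percentile 46.9 to 73.0 of its list in the 4 EB libraries. In each it was the peak over the ends of Tcf19 and Cchcr1. In the 3 ES libraries that had a peak it was the upstream one, at percentile 0.3 to 12.7, so these ranks belong to different sites. The EB KO peaks over the start ranked at 15.0 and 21.1. The percentile is the share of the peaks of 1 list with a score no higher, by the authors' own score. No ES library of either mark had a peak over the Pou5f1 span.

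Sox2 (chr3:34649995-34652461), the SOX partner of OCT4, had no H3K4me2 or H3K4me1 peak over its span in any library. Its H3K4me2 within 20 kb covered 9.7 and 4.6 kb in EB KO, 0 and 0 kb in EB WT, 0 and 0 kb in ES KO and 0 and 5.3 kb in ES WT. The stages overlapped, and the difference of 0.81 (SE 0.60) was not called (limma adjusted p 0.352). Without ES WT replicate 2, the only ES library with a peak there, the difference was 1.47 and passed (limma adjusted p 0.0195). Peaks lay upstream at chr3:34639083-34644395 in both EB KO libraries and in ES WT replicate 2, and EB KO replicate 1 had a second peak downstream, at chr3:34661584-34667478, which was 5.9 of its 9.7 kb. Further out, some sites had peaks in ES libraries alone. The region at chr3:34737646-34741245, downstream of the gene, had H3K4me2 in 0 of 4 EB libraries and in 4 of 4 ES libraries, and chr3:34696000-34701773 had it in 0 of 4 and 3 of 4, with H3K4me1 in 0 of 4 and 4 of 4.

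Nanog (chr6:122707489-122714633), which encodes a homeodomain factor of the core network, rose in H3K4me1. The H3K4me1 peaks within 20 kb covered 5.4 and 4.5 kb in EB KO and 7.0 and 2.8 kb in EB WT, against 0 kb in each of the 4 ES libraries. The difference was 2.51 (SE 0.31, limma adjusted p 0.00255), with all 4 EB libraries above the ES libraries, but with ES at 0 its size depends on the 1 kb added and gives no fold. An H3K4me1 peak in all 4 EB and no ES library within 20 kb was found for 197 of the 21887 genes (0.9%). All 4 EB libraries had a peak at the 3′ end of the gene, chr6:122712412-122717931. EB KO 1 and EB WT 1 each had a further peak upstream, at chr6:122702089-122704760 and chr6:122692774-122694495. No library had a peak of either mark over the start, whose window holds the OCT-SOX element printed above. In EB KO 1 and EB WT 2 the 3′ Nanog peak ranked at percentiles 99.6 and 99.4 of its list, and in EB KO 2 and EB WT 1 at 67.5 and 30.3. H3K4me2 covered 0 and 2.9 kb in EB KO and 0 and 3.6 kb in EB WT, against 0 kb in the 4 ES libraries, and was not called (1.04, SE 0.63, limma adjusted p 0.259). Within 120 kb, where further H3K4me1 sites enter, among them sites by Dppa3 and Slc2a3, the H3K4me1 difference was 0.03 (limma adjusted p 0.932).

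The 3 Krüppel-like factor genes differed from one another. Klf2 (chr8:72319062-72321654) had H3K4me2 over 3.0 and 5.2 kb in EB KO and 2.7 and 5.3 kb in EB WT, against 0 kb in each of the 4 ES libraries. It rose by 2.30 (SE 0.23, limma adjusted p 0.00148), and the 4 EB libraries stood apart from the 4 ES libraries. With ES at 0 kb this size gives no fold, which holds for Klf5 H3K4me2 below as well. The peaks were in a single region, chr8:72316185-72321525, which spans the promoter printed above and most of the gene and had no H3K4me1 in any library. They ranked at percentiles 31.7 to 84.2 of their lists. An H3K4me2 peak over the promoter window in all 4 EB and no ES library was found for 459 of 32851 windows (1.4%).

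Klf5 (chr14:99298691-99313412) had H3K4me2 over 4.6 and 4.4 kb in EB KO and 4.3 and 5.6 kb in EB WT, against 0 kb in the 4 ES libraries, and rose by 2.51 (SE 0.11, limma adjusted p 0.000191). Klf2 and Klf5 were 2 of the 88 genes (0.402% of 21887) with an H3K4me2 peak within 20 kb in all 4 EB and no ES library. H3K4me1 near Klf5 fell: it covered 0.8 and 1.2 kb in EB KO and 1.3 and 0.6 kb in EB WT, against 5.0 and 6.4 kb in ES KO and 2.1 and 3.3 kb in ES WT (-1.33, SE 0.27, limma adjusted p 0.0114). No EB library overlapped the ES range. The 2 marks met in 1 merged region, chr14:99292028-99302382. There the EB H3K4me2 peaks covered the lower-coordinate end of the gene and the ES H3K4me1 peaks ended short of the gene, at chr14:99292028-99298385 for the widest (ES KO 2). These ES H3K4me1 peaks ranked at percentiles 4.3 to 26.3. A second H3K4me1 region, chr14:99273995-99279963, partly beyond the 20 kb, had peaks reaching into the 20 kb in 3 of 4 EB libraries, at percentiles 84.0 to 87.9. It had one in 1 of 4 ES libraries, at 59.1. The remaining EB library, from KO cells, had an H3K4me1 peak inside these coordinates too, chr14:99276966-99278550, just beyond the 20 kb. With the higher-scoring 50% of each list alone the H3K4me1 difference of Klf5 turned to 0.85 (limma adjusted p 0.0273). It was 0.85 too with lists of equal length (limma adjusted p 0.0298).

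Klf4 (chr4:55527137-55532475, minus strand) kept H3K4me2 in every library, as 55.6% of all genes did within 20 kb. The peaks covered 4.3 and 5.7 kb in EB KO and 5.1 and 8.1 kb in EB WT, against 9.3 and 10.4 kb in ES KO and 9.2 and 8.3 kb in ES WT. The fall of -0.64 (SE 0.17, limma adjusted p 0.035) was small and did not hold at the threshold when any 1 library other than EB WT replicate 2 was left out, with an adjusted p of 0.0507 to 0.103. It was -0.11 when covered length was scaled to the library total (limma adjusted p 0.532). Within the gene itself the peaks covered 3.1 and 3.6 kb in EB KO and 3.4 and 3.5 kb in EB WT, against 5.3 kb, nearly the whole span, in all 4 ES libraries. The stretch not covered in EB lay toward the 3′ end. The shorter EB peaks were the better ranked. The best-ranked peak over the gene stood at percentiles 98.6 and 84.2 in EB KO and 91.7 and 78.6 in EB WT, against 10.4 and 12.7 in ES KO and 37.8 and 2.2 in ES WT. With lists cut to equal length by score, Klf4 was higher in EB (1.10, limma adjusted p 0.0245). A further H3K4me2 region at chr4:55513541-55516680, beyond the 3′ end, was in 3 of 4 EB and 4 of 4 ES libraries.

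**Figure D3:**
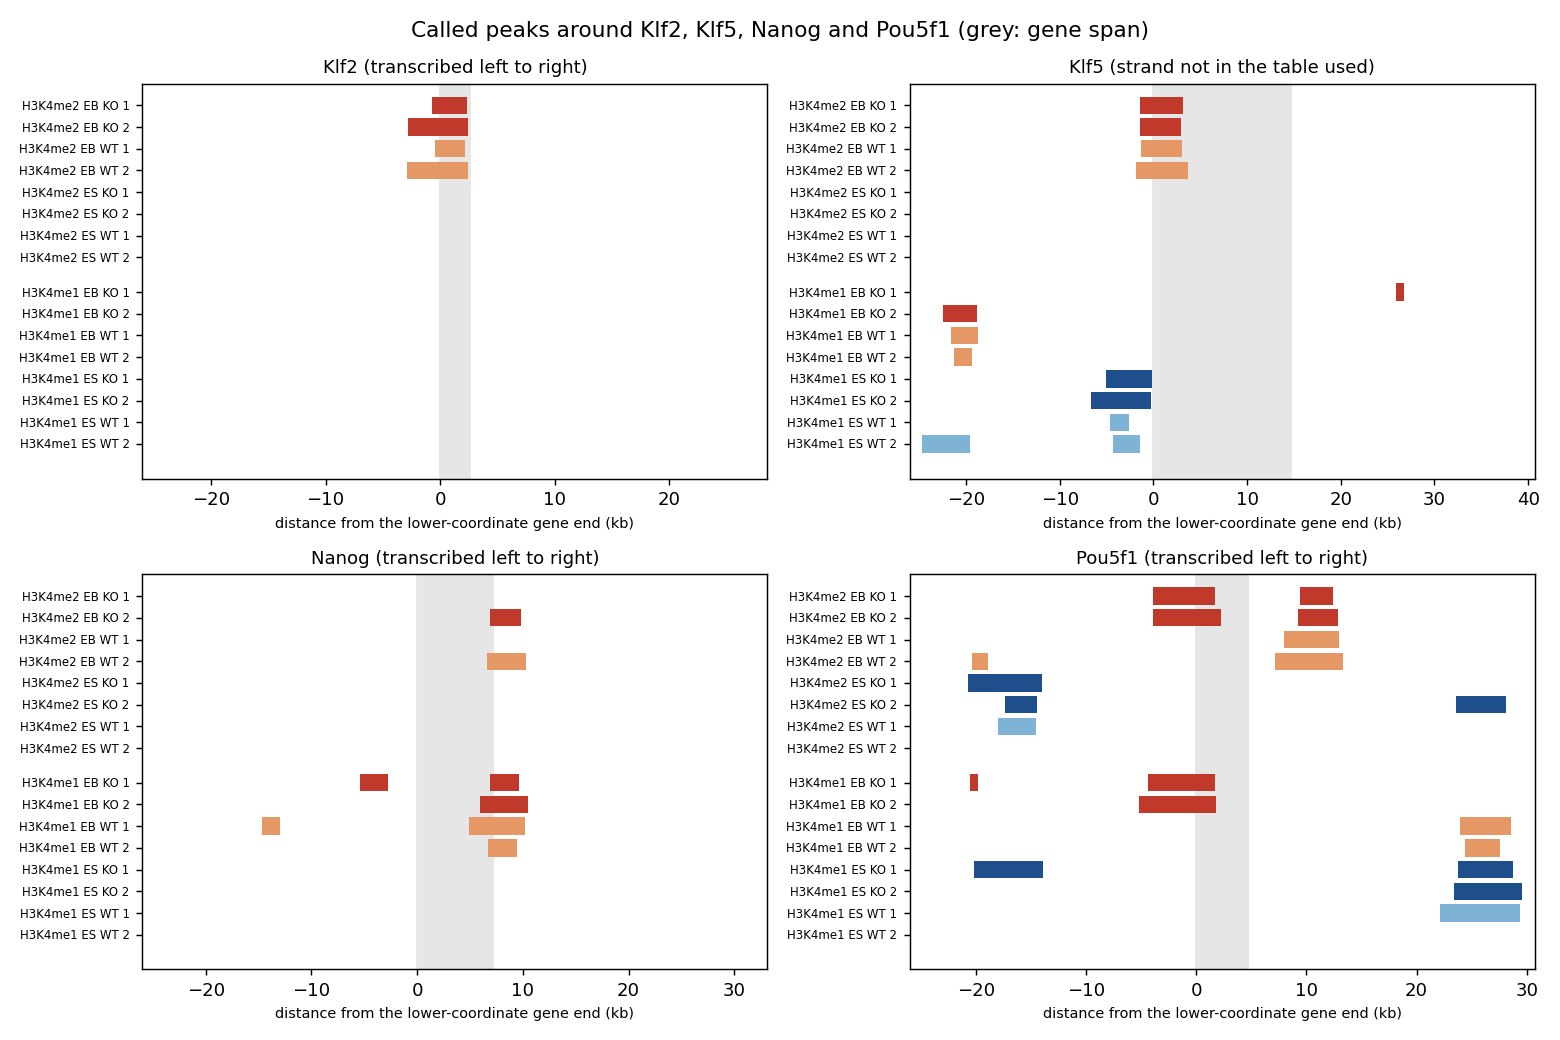
Called peaks of each library (rows, H3K4me2 above H3K4me1, EB KO and EB WT above ES KO and ES WT) around Klf2, Klf5, Nanog and Pou5f1, drawn to scale against distance in kb from the lower-coordinate gene end, with the gene span in grey. EB peaks sit on the start of Klf2, the lower-coordinate end of Klf5 and the 3′ end of Nanog, where no ES peak of H3K4me2 was called, and the Pou5f1 start has peaks of both marks in EB KO libraries.

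Esrrb (chr12:86361117-86521628), an orphan nuclear receptor gene, fell in both marks. H3K4me2 covered 1.7 and 2.6 kb in EB KO and 4.2 and 5.5 kb in EB WT, against 11.5 and 17.0 kb in ES KO and 11.1 and 13.2 kb in ES WT (-1.72, SE 0.18, limma adjusted p 0.00178). The 4 EB libraries were all below the 4 ES libraries. H3K4me1 covered 2.1 and 0 kb in EB KO and 10.6 and 2.5 kb in EB WT, against 12.4 and 10.6 kb in ES KO and 8.0 and 13.1 kb in ES WT, so that EB WT replicate 1 lay within the ES range. The H3K4me1 fall of -1.83 (SE 0.53, limma adjusted p 0.0387) did not hold at the threshold when any 1 of 6 libraries was left out: ES WT 1, ES WT 2, ES KO 1, ES KO 2, EB WT 2 or EB KO 2, with limma adjusted p of 0.0817 to 0.12.

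The Esrrb span held sites that remained, sites in ES cells alone and H3K4me1 sites in EB alone. The region at chr12:86420041-86424357, over the internal start whose 250 bases are printed above, had H3K4me2 in all 8 libraries and H3K4me1 in 6. H3K4me2 peaks there ranked at percentiles 54.1 to 85.1 in EB and 92.7 to 95.5 in ES cells. The nearest site on the 5′ side, chr12:86401583-86404855, had H3K4me2 in 0 of 4 EB and 3 of 4 ES libraries, and the next, chr12:86394552-86397283, in 0 of 4 and 4 of 4. Both had H3K4me1 in 1 EB WT library and in 3 of 4 ES libraries. The nearest site on the 3′ side, chr12:86432022-86438311, had H3K4me2 in 1 of 4 EB (EB WT 2) and 3 of 4 ES libraries, and the next, chr12:86452317-86457444, in 0 of 4 and 4 of 4. A site at chr12:86385606-86388796 had H3K4me1 alone, in 0 of 4 EB and 4 of 4 ES libraries. Other H3K4me1 sites were in EB alone. The site chr12:86379133-86382484 was in EB KO 1, as its only H3K4me1 peak here, and in EB WT 1. The site chr12:86362976-86366684 was in EB WT 1. Toward the 3′ end, chr12:86516056-86519239 had H3K4me2 in both ES KO libraries and in no other library. With the higher-scoring 50% of each list, which keeps the internal start in all libraries, the H3K4me2 difference of Esrrb was -0.07 (limma adjusted p 0.73), and with lists of equal length it was -0.41 (limma adjusted p 0.436). The first annotated start of Esrrb had no peak over its window in any library.

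Tfcp2l1 (chr1:118627923-118685168), a grainyhead-family factor gene that responds to LIF, had peaks at opposite ends of the gene in the 2 stages. Within 20 kb, H3K4me2 covered 2.9 and 1.6 kb in EB KO and 1.9 and 3.4 kb in EB WT, against 3.6 and 2.0 kb in ES KO and 0 and 1.3 kb in ES WT, and the difference of 0.48 (SE 0.35) was not called (limma adjusted p 0.346). Over the gene span alone it covered 1.2 to 1.7 kb in the 4 EB libraries, against 0 kb in the 4 ES libraries, and it rose by 1.26 (limma adjusted p 0.000579), where 8.04% of the 14685 genes tested on their span rose. The EB peaks of the 4 libraries lay over the start (chr1:118626147-118629611), and EB KO 1 had a further peak of 446 bp upstream. The region over the start holds the TATA box promoter printed above. The ES peaks lay beyond the 3′ end (chr1:118686061-118691485), with H3K4me2 in 0 of 4 EB and 3 of 4 ES libraries and H3K4me1 in 0 of 4 and 4 of 4. In EB, H3K4me1 was instead within the gene at chr1:118647340-118651121, in 3 of 4 EB and 0 of 4 ES libraries. The sum of H3K4me1 did not pass (-0.91, SE 0.42, limma adjusted p 0.132).

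Zfp42 (chr8:43295067-43307009, minus strand), which encodes the naive marker REX1, fell in both marks. H3K4me2 covered 0 and 1.2 kb in EB KO and 0 and 1.7 kb in EB WT, against 3.3 and 9.7 kb in ES KO and 9.1 and 8.6 kb in ES WT (-2.39, SE 0.49, limma adjusted p 0.0154). Without ES WT replicate 1 the H3K4me2 difference of Zfp42 had an adjusted p of 0.0531, at -2.38, with lists of equal length it was -1.25 (limma adjusted p 0.155), and by number of peaks -0.94 (limma adjusted p 0.131). H3K4me1 covered 0 kb in the 4 EB libraries, against 3.0 and 2.9 kb in ES KO and 1.9 and 3.0 kb in ES WT (-1.88, SE 0.22, limma adjusted p 0.00238), and 1112 of 21887 genes (5.08%) had H3K4me1 peaks in all 4 ES and no EB library in this way. The groups overlapped for neither mark, and with EB at 0 kb the size of the H3K4me1 fall gives no fold. The 2 EB peaks of H3K4me2 that remained, 1.2 and 1.7 kb wide in EB KO 2 and EB WT 2, lay over the start and the promoter with the octamer printed above. In ES cells the start was covered by wider H3K4me2 peaks of 6.6 to 7.5 kb in ES KO 2, ES WT 1 and ES WT 2, and a second H3K4me2 region at the 3′ end, chr8:43295244-43298710, was in 0 of 4 EB and 4 of 4 ES libraries.

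Tbx3 (chr5:119670534-119684724), a T-box factor gene, had no H3K4 peak within 20 kb in any of the 16 libraries, a state shared by 19% of all genes for H3K4me2 and 27.8% for H3K4me1. Its surroundings were marked further out. Within 120 kb, H3K4me2 covered 6.2 and 11.8 kb in EB KO and 5.1 and 10.0 kb in EB WT, against 16.7 and 26.5 kb in ES KO and 29.0 and 13.8 kb in ES WT. It fell by 1.28 on the log2 scale (limma adjusted p 0.0223), as 41.3% of the 19608 genes tested at this distance did, with all EB libraries below all ES libraries. A site at chr5:119720673-119725092 had both marks in 0 of 4 EB and 4 of 4 ES libraries.

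**Figure D4:**
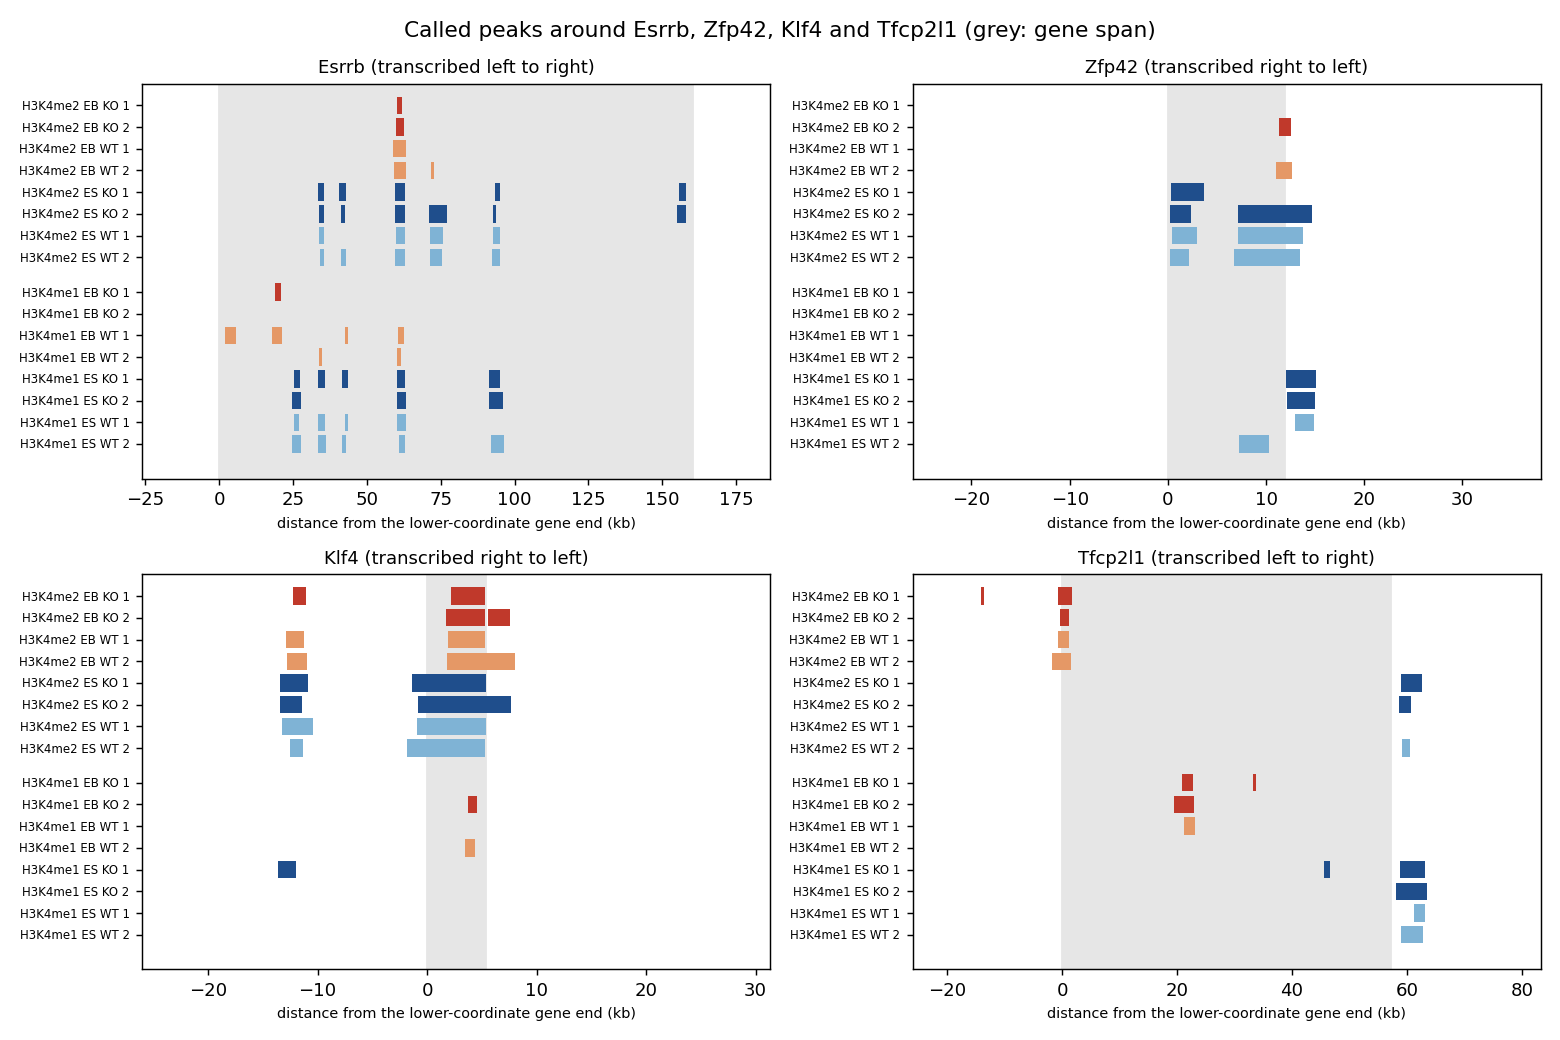
Called peaks of each library (rows ordered as H3K4me2 above H3K4me1, EB above ES, KO above WT) around Esrrb, Zfp42, Klf4 and Tfcp2l1, against distance in kb from the lower-coordinate gene end, with the gene span in grey. Esrrb keeps its internal H3K4me2 site in all 8 libraries and its other H3K4me2 sites in ES libraries and, at 1 site, EB WT replicate 2, Zfp42 is covered in ES libraries, Klf4 has shorter peaks in EB, and Tfcp2l1 has H3K4me2 at its start in EB and beyond its 3′ end in ES cells.

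The calls depended on how far from the gene the marks were summed. Within 2500 bp of the gene ends, Pou5f1, Klf2, Klf5 and Tfcp2l1 rose in H3K4me2 in EB (9.12% of all genes tested there rose) and Zfp42 fell (13.7%), and Pou5f1 and Nanog rose in H3K4me1 (8.16%) and Klf5, Tfcp2l1 and Zfp42 fell (23.3%). On the span alone the same 4 genes rose in H3K4me2 (8.04%) and Klf4, Esrrb and Zfp42 fell (24.2%), and Pou5f1 rose (10.4%) and Esrrb fell (28.3%) in H3K4me1. These Pou5f1 rises came from the EB KO libraries. At the gene ends its H3K4me2 covered 4.18 and 4.75 kb in EB KO, against 0 and 0.13 kb in EB WT. On the span, and for H3K4me1 in both windows, both EB WT libraries stood at 0 kb. Within 120 kb no gene rose in either mark (2.68% and 5.84% of all genes did), 6 fell in H3K4me2 (Sox2, Klf4, Klf5, Esrrb, Tbx3 and Zfp42) and 5 fell in H3K4me1 (Pou5f1, Klf2, Klf5, Esrrb and Zfp42), where 41.3% and 42.6% of all genes tested fell.

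Sites beyond 20 kb set several of the genes apart from their near windows. Klf5, which rose in H3K4me2 within 20 kb, fell within 120 kb (-1.05, limma adjusted p 0.00208): it covered 4.6 and 4.4 kb in EB KO and 4.3 and 5.6 kb in EB WT, against 13.9 and 14.5 kb in ES KO and 9.6 and 6.9 kb in ES WT. The EB values are those of the near peak alone. The ES values came from distal sites such as chr14:99386304-99389500, which had both marks in 0 of 4 EB and 4 of 4 ES libraries. The H3K4me2 difference of Klf2 within 120 kb was -0.42 and not called (limma adjusted p 0.102). Its H3K4me1, which had no peak within 20 kb, covered 3.5 and 0 kb in EB KO and 0 and 0.45 kb in EB WT, against 22.0 and 8.9 kb in ES KO and 14.0 and 15.2 kb in ES WT, and fell by 3.26 (limma adjusted p 0.00258), where 42.6% of 18110 genes fell. For Klf2 the H3K4me2 sites at chr8:72351828-72356185 and chr8:72398926-72405692 were in 0 of 4 EB and 4 of 4 ES libraries. Sox2 H3K4me2 within 120 kb fell as well (-1.76, limma adjusted p 0.00965), at 9.7 and 4.6 kb in EB KO and 0 and 1.2 kb in EB WT, against 9.7 and 14.1 kb in ES KO and 6.3 and 13.5 kb in ES WT, although EB KO 1 stood above ES WT 1. Neighbouring genes share these wider windows.

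KO was set against WT within each stage to ask whether loss of Prdm16 moved the marks. In EB, 0 of 9 genes were called for H3K4me2, where 1.31% of all genes tested were higher and 3.48% lower, and 0 of 8 for H3K4me1, where 0.395% were higher and 3.54% lower. In ES cells, 0 of 9 were called for H3K4me2, where 2.54% were higher and 0.747% lower, and 0 of 8 for H3K4me1, where 0.24% were higher and 0.359% lower. At an unadjusted p under 0.05 limma gave 2 and 2 genes in EB and 1 and 0 genes in ES cells, for H3K4me2 and H3K4me1 in each case. The share of all genes at this unadjusted threshold is not given here, so these counts have no background to be read against. No gene had a called difference of the KO effect between stages (limma interaction), where 1.31% of genes were higher and 7.63% lower for H3K4me2 and 0% were called for H3K4me1. With 2 libraries against 2 the exact permutation test over libraries could not pass, so the calls rest on limma alone. The KO and WT libraries did not overlap in EB for Pou5f1 and Sox2 (KO higher, 5.61% of all genes tested) and Esrrb (KO lower, 52.2%) in H3K4me2, and for Pou5f1 and Tfcp2l1 (KO higher, 5.39%) and Esrrb (KO lower, 30.7%) in H3K4me1. In ES cells they did not overlap, with KO higher, for Pou5f1, Klf4 and Tfcp2l1 in H3K4me2 (47.5%) and for Klf5 and Tfcp2l1 in H3K4me1 (17.2%), and with KO lower for 0 genes of either mark (7.27% and 13.8% of all genes).

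Pou5f1 had a genotype pattern in EB that depended on the window. The Pou5f1 start had a peak of both marks at chr17:35500856-35508281 in both EB KO libraries, in neither EB WT library and in no ES library. Over the gene span H3K4me2 covered 1.7 and 2.3 kb in EB KO, against 0 and 0 kb in EB WT, and H3K4me1 1.7 and 1.8 kb in EB KO, against 0 and 0 kb in EB WT. Measured on the gene span alone, both were called in limma (H3K4me2 1.56, adjusted p 0.00187, where 1.66% of genes were higher, and H3K4me1 1.44, adjusted p 0.00668, where 0.891% were higher). Within 2500 bp of the gene ends they were also called (H3K4me2 2.36, limma adjusted p 0.000372, where 2.17% of genes were higher, and H3K4me1 2.38, limma adjusted p 0.00858, where 1.02% were). On the span, all ES libraries and both EB WT libraries stood at 0 kb, so these groups showed no spread for the p-values to rest on. The fits with a library left out were made on the 20 kb window alone, so the calls on the span and gene ends were not checked that way. Within 20 kb neither passed, at 0.53 (SE 0.69, limma adjusted p 0.647) for H3K4me2 and 2.31 (SE 0.80, limma adjusted p 0.184) for H3K4me1.

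The Pou5f1 promoter window was 1 of 12 among 32851 (0.0365%) with both marks in both EB KO libraries and in no EB WT library. Its peaks were 5.6 and 6.1 kb wide for H3K4me2 and 6.0 and 6.9 kb wide for H3K4me1. They ranked at percentiles 15.0 and 21.1 of their H3K4me2 lists and at 70.5 and 34.2 of their H3K4me1 lists. The H3K4me2 peaks were among the lower-scoring ones of those libraries. The H3K4me1 lists held 8943 and 5990 peaks in EB KO, against 14082 and 13260 in EB WT, and the H3K4me2 lists held 15205 and 13818 in EB KO, against 14334 and 19246 in EB WT.

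Sox2 in EB had H3K4me2 over 9.7 and 4.6 kb in KO, against 0 and 0 kb in WT (2.95, SE 0.85, limma p 0.0151, adjusted p 0.108). The groups did not overlap, as was so with KO above WT for 5.61% of the genes tested. It passed when either ES WT library was left out of the shared fit (limma adjusted p 0.0306 without ES WT 1 and 0.0293 without ES WT 2). Esrrb leaned the other way, with H3K4me2 over 1.7 and 2.6 kb in EB KO, against 4.2 and 5.5 kb in EB WT (-0.88, SE 0.26, limma p 0.0153, adjusted p 0.109), and KO below WT without overlap was found for 52.2% of genes. Esrrb H3K4me1 covered 2.1 and 0 kb in EB KO, against 10.6 and 2.5 kb in EB WT (-1.84, SE 0.76, limma adjusted p 0.27). The H3K4me1 site at the internal start was in neither EB KO library and in both EB WT libraries.

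Klf2 and Tfcp2l1, which carried H3K4me2 over their starts in EB, and Klf5, which carried it over its lower-coordinate end, did so in all KO and WT libraries. Klf2, Klf5 and Tfcp2l1 had KO minus WT differences of 0.06 (SE 0.32), -0.12 (SE 0.16) and -0.16 (SE 0.50), whose limma adjusted p were 0.961, 0.65 and 0.889. In ES cells Tfcp2l1 H3K4me2 covered 3.6 and 2.0 kb in KO, against 0 and 1.3 kb in WT (1.30, SE 0.50, limma p 0.0434, adjusted p 0.272), and Pou5f1 H3K4me2 covered 6.0 and 4.1 kb in KO, against 3.5 and 0 kb in WT (1.49, SE 0.69, limma adjusted p 0.357). KO lay above WT without overlap for both, as it did for 47.5% of genes. Without ES WT replicate 1 the Pou5f1 difference was 2.57 and passed (limma adjusted p 0.0325). Klf4, Esrrb and Zfp42 differed by 0.16, 0.20 and -0.53 in ES H3K4me2, with limma adjusted p of 0.795, 0.764 and 0.76.

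The PRDM16 lists, which held 146 to 586 peaks, had a peak within 20 kb of 0.717 to 2.84% of all genes per library. Near the 10 genes, 1 peak lay just upstream of the Tfcp2l1 start in ES WT replicate 1 (chr1:118625652-118626142), and 1 lay over the lower-coordinate end of Tbx3 in ES KO replicate 1 (chr5:119670219-119670842). Neither was seen in the second library of its group, and the other 6 PRDM16 libraries had 0 of the 10 genes with a peak.

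A list of 22 other pluripotency network genes gave the wider setting. For H3K4me2, 5 of the 22 rose in EB, where 5.56% of all genes tested rose, and 7 fell, where 27.5% fell. The median was -0.63, beside -0.30 over all genes. The largest rises were of Trim28, a co-repressor (3.16, limma adjusted p 0.000172), Rest, a repressor of neuronal genes (1.84, 0.0125), and Fgf4, a growth factor gene (1.44, 0.00139), and Tcl1 fell most (-2.24, 0.000265). Zfp281, a zinc finger factor, fell by 1.24 (0.00188), Jarid2, a Polycomb cofactor, by 1.23 (0.0194), and Stat3, the transducer of LIF signalling, by 1.00 (0.000928). For H3K4me1, 2 of the 20 tested rose (Fgf4 and Prdm14) and 5 fell, led by Zfp281 (-2.22, 0.00255), Tcl1 (-2.20, 0.00285) and Tcf3 (-1.80, 0.0311). Of all genes tested for H3K4me1, 7.65% rose and 31.5% fell. In EB KO against EB WT, H3K4me2 of Utf1 was higher (2.35, 0.0116) and that of Stat3 lower (-0.67, 0.0453), and no H3K4me1 call was made. In ES KO against ES WT, H3K4me2 of Fgf4 (1.93, 0.00943) and Tcl1 (1.45, 0.0136) and H3K4me1 of Fgf4 (2.76, 0.0416) were higher. The values in parentheses are differences of log2(kb + 1) and limma adjusted p. For KO against WT, the shares of all genes called are those given with the genotypes above. The limits of these KO calls are given with the next lists.

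Markers of other cells were counted in the same fits. All genes named here had a limma adjusted p under 0.05, and the values are differences of log2(kb + 1). Of all genes tested, 5.56% rose and 27.5% fell in EB for H3K4me2, and 7.65% rose and 31.5% fell for H3K4me1. The lists are short, and their counts are to be read beside these shares. Among 8 primed epiblast genes, 1 rose and 2 fell in EB for H3K4me2 (Fgf5 0.92, Lef1 -1.90 and Foxd3 -1.82) and 1 rose and 4 fell for H3K4me1 (Lef1 2.54 against Otx2 -2.61, Dnmt3b -2.40 and Foxd3 -2.36). Among 5 neuroectoderm genes, 0 rose and 2 fell for H3K4me2 (Zic1 -3.60 and Pax6 -1.88), and 0 rose and 1 fell for H3K4me1 (Sox1 -1.31). Among 9 streak, mesoderm and endoderm genes, 0 rose and 1 fell for H3K4me2 (Gata6 -1.22), and 2 rose (Kdr 1.45 and Mixl1 1.22) and 2 fell (Foxa2 -2.31 and Eomes -1.31) for H3K4me1. Among 4 trophoblast genes, 0 rose and 2 fell for H3K4me2 (Cdx2 -2.89 and Elf5 -1.15) and 0 rose and 3 fell for H3K4me1, the third being Eomes, which both lists hold. Among 6 fibroblast genes, of which 5 were tested, Col1a2 rose (0.77 and 2.55) and S100a4 fell (-1.63 and -1.27) in H3K4me2 and H3K4me1. In EB KO against EB WT, Sox1 was higher in both marks (2.67 and 2.36) and Dnmt3b in H3K4me1 (2.29), and in ES KO against ES WT Sox1 was lower (-2.70) and Elf5 higher (2.31) in H3K4me2, with no other call in these lists. The KO calls of these lists and of the network list rest on 2 libraries against 2. How each of them held under the alternatives is not given. With the replicate number as a replicate block, 0 genes of all tested kept a KO call for H3K4me1 in either stage. For H3K4me2, 132 higher and 183 lower genes were then called in EB, against 227 and 601 without the block. In ES cells 218 and 89 were called, against 439 and 129. The KO effect differed between stages (limma interaction, H3K4me2) for Sox1 and Elf5, and in the network list for Fgf4, Tcl1, Stat3 and Kdm1a. Peak lists do not measure expression, and the part of other cell types in the changes at the 10 genes was not tested.

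The mean pattern of the 10 genes over the 16 libraries, centred within each mark, was most like that of Ppih (Pearson r = 0.783), Dhx8 (0.773), Lsm2 (0.769), Elf1 (0.762) and Edc3 (0.757), of 18093 genes compared. These correlations share libraries and list lengths and are a description. The 10 genes were not alike among themselves: with the same mean, Klf5 had r = 0.696 and Tfcp2l1 0.695, and Klf4, Zfp42 and Esrrb -0.116, 0.053 and 0.058.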

How the data were processed

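Each CUT&RUN library has 1 deposited peak list that gives, per peak, its coordinates, a name in MACS style and a score. The score is the authors' own; its unit is not stated in the sources used here, it is 50 or more in every deposited list, and it served only for ranks inside 1 list. MACS2, Bowtie2, SAMtools 1.5, bedtools, HOMER 4.10, deepTools and the build mm10 are named per the submitters' processing notes, without their order or roles. Read depth and the use of a control library are unknown. Genes and promoter sequences came from RefSeq tables of GRCm38.p6, which has mm10 coordinates. Exons were not resolved, and the strand was taken from the promoter table. Covered kb was tested with limma 3.58.1 (R 4.3.3; 4 group means per mark, eBayes with trend, two-sided), checked on simulated data. Samples were grouped by their titles. The text names all 10 genes, called members of the other lists (among them the 3 of largest difference per list and mark) and the 5 genes most like their mean. The genes and lists were chosen with earlier results of these data known. Alternatives covered windows of 2500 bp, the span and 120 kb, peak number, scaling, list length, score, pseudocounts of 0.25 and 4 kb, the filter, exact separation, replicate block and each library left out. Replicate numbers did not pair libraries: same-numbered libraries' deviations correlated between -0.09 and 0.067.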

Additional observations from a re-analysis of the deposited data

How the results depend on the processing

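Over the alternatives run, 856 of 993 single-gene values kept their direction and their side of the threshold, 31 lost their call, 36 gained one and 70 changed sign, of which 62 were called neither with the setting of the report nor under the alternative. For EB minus ES, leaving out 1 library gave 4 to 5 called genes for H3K4me2 (5 with all libraries) and 3 to 5 for H3K4me1 (4 with all). For KO minus WT, leaving out 1 library gave 0 to 1 in EB and 0 to 1 in ES cells for H3K4me2, and 0 to 0 in both for H3K4me1. With the replicate number as a replicate block, the calls were the same 5 and 4 genes for EB minus ES, and 0 in each KO comparison. The EB minus ES count was 3 by number of peaks and 1 with the higher-scoring 50% of peaks for H3K4me2, and 2 on the gene span, 2 by number of peaks and 2 when scaled for H3K4me1. The KO minus WT count in EB was 1 on the gene ends, 1 on the gene span (Pou5f1 in both) and 1 with equal list lengths (Sox2) for H3K4me2, and 1 in each of the same 3 settings (Pou5f1) for H3K4me1. In ES cells it was 1 with equal list lengths and 1 with the higher-scoring 50% for H3K4me1 (Zfp42). Exact separation of 2 from 2 libraries, which is no test at this size, gave 3 and 3 genes in EB and 3 and 2 in ES cells.

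Signs changed as follows, with the difference under the alternative in parentheses. For EB minus ES, the 120 kb window turned H3K4me2 of Pou5f1 (-0.48), Sox2 (-1.76), Nanog (-0.13), Klf2 (-0.42) and Klf5 (-1.05) and H3K4me1 of Pou5f1 (-1.14). Equal list lengths and the higher-scoring 50% turned H3K4me2 of Klf4 (1.10 and 1.16) and H3K4me1 of Klf4 (-0.14 and -0.14) and Klf5 (0.85 and 0.85), and the gene span turned H3K4me1 of Tfcp2l1 (1.13). Leaving out 1 library gave ranges across 0 for H3K4me1 of Pou5f1 (-0.23 to 0.70), Sox2 (-0.95 to 0.17) and Klf4 (-0.25 to 0.45).

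None of the sign changes for KO minus WT was called in limma. In EB they were, for H3K4me2, Pou5f1 (-0.30 within 120 kb, -0.42 with the higher-scoring 50%), Nanog (0.07 within 120 kb), Klf5 (1.09 with the higher-scoring 50%), Tfcp2l1 (0.02 on the span, 0.29 by number of peaks) and Zfp42 (0.58 within 120 kb). Scaling turned Nanog (0.14), Klf4 (0.09), Klf5 (0.29), Tfcp2l1 (0.19) and Zfp42 (0.05), and leaving out series 400-JX turned Klf5 (0.03), Tfcp2l1 (0.15) and Zfp42 (0.57). For H3K4me1 in EB they were Sox2 (-1.58 within 120 kb), Nanog (-0.15 on the gene ends, -0.38 on the span), Klf4 (0.42 with equal list lengths, 0.42 with the higher-scoring 50%, 0.23 scaled) and Esrrb (0.82 with either score setting). In ES cells they were, for H3K4me2, Sox2 (0.31 within 120 kb), Klf4 (-0.16 scaled) and Esrrb (-0.63 with equal list lengths, -0.13 scaled, -0.07 without series 400-JX). For H3K4me1 they were Sox2 (0.13 within 120 kb), Klf5 (-0.29 by number of peaks, -0.23 with either score setting) and Esrrb (-0.16 by number of peaks). Ranges across 0 with 1 library left out were, in EB, H3K4me2 of Nanog (-1.23 to 0.86), Klf2 (-0.33 to 0.45), Klf5 (-0.27 to 0.03), Tfcp2l1 (-0.46 to 0.15) and Zfp42 (-0.87 to 0.57) and H3K4me1 of Nanog (-0.44 to 0.66), Klf4 (-0.52 to 0.42) and Klf5 (-0.18 to 0.33). In ES cells they were H3K4me2 of Esrrb (-0.07 to 0.46) and Zfp42 (-1.18 to 0.12) and H3K4me1 of Esrrb (-0.18 to 0.47) and Zfp42 (-0.03 to 0.46).

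The wider window adds distal sites, and both score settings remove low-ranked peaks. Other causes were not tested. The counts of kept calls below leave out each alternative in which the gene had too few peaks to be tested. The single-gene values above leave it out too. Such cases were Klf5 and Zfp42 on the gene span for H3K4me1, and Esrrb at the gene ends for both marks. Klf2 in H3K4me2 was not tested with the higher-scoring peaks alone. Under that setting Zfp42 was the only gene called for EB minus ES in H3K4me2. Of the 9 called differences, Zfp42 in H3K4me1 kept its call in all 19 alternatives. Klf2 in H3K4me2 kept it in 19 of 20 and Klf5 in H3K4me2 in 19 of 21. Klf4 in H3K4me2 kept it in 8 of 21 and Esrrb in H3K4me1 in 9 of 19. Esrrb in H3K4me2 kept it in 18 of 20 and Zfp42 in H3K4me2 in 18 of 21. Nanog in H3K4me1 kept it in 18 of 20 and Klf5 in H3K4me1 in 15 of 19. Without the 2 libraries of series 400-JX, H3K4me2 of Klf4 was -0.74 (limma adjusted p 0.0505). Over all genes, calls for H3K4me2 in ES KO (439 higher and 129 lower) became 0 and 0 without that series, as did those in EB KO (227 and 601), and those for H3K4me1 in EB KO (56 and 503) and ES KO (34 and 51) became 0 and 0 with the replicate block. With equal list lengths EB minus ES gave 2641 higher and 1558 lower genes for H3K4me2 (961 and 4746 otherwise) and 1296 and 1645 for H3K4me1 (1085 and 4465). The lists give no read counts, so a site below the peak threshold cannot be told apart from one without the mark.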
